A study of Mus musculus with 55 samples.

Results

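The genes described here are Myc and the ribosome biogenesis factors, a list of 37 genes that encode the machinery for making ribosomal RNA and assembling it into ribosomal subunits, together with the transcription factor Myc. Members were taken into the analysis when the array had a probe set annotated to that gene alone, and each gene was represented by its brightest such probe set. This gave 35 of the 37 genes, out of 12393 genes named in this way on the whole array, and Dkc1 and Nob1 were not analysed here. Ribosomes are built in the nucleolus, where RNA polymerase I transcribes the ribosomal RNA precursor, small nucleolar ribonucleoproteins (snoRNPs) guide its chemical modification, and large sets of assembly factors fold, cut and export the pre-ribosomes. Myc is an immediate regulator of growth that binds DNA with its partner Max, and many of the genes for nucleolar proteins are well known Myc targets. Many of the assembly steps named below were worked out in budding yeast and are shared with mammals, and cells that grow before division raise the production of ribosomes.

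The samples came from the optic nerve head (ONH), the glia-rich region where the axons of retinal ganglion cells leave the mouse eye, dissected with the start of the zone in which they become myelinated. Female C57Bl/6 mice, aged 6 to 8 weeks at surgery, had the left optic nerve crushed 1 mm from the globe (10 seconds), and the ONH was collected at 5 times, the earliest 1 day and the latest 3 months after crush. Crushed ONHs were compared with contralateral ONHs of the unoperated right eyes of the same mice, and a further naive group had no surgery. Each of the 11 groups had 5 samples, each sample pooled the ONHs of 2 mice, and all groups were of the same strain. RNA was amplified and hybridised to Affymetrix Mouse Genome 430A 2.0 arrays, and the deposited value is a normalised probe set intensity on a linear scale. The level of one probe set cannot be set against that of another, and because the tissue is a mixture of cells, fewer cells of a type and less RNA per cell cannot be told apart.

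The 45 arrays of the naive group and the times up to 3 weeks were processed in one batch, and the 10 arrays at 3 months in a second batch, so no level was compared between the batches. The median intensity of an array was 459 to 554 among the 45 and 494 to 598 among the 10. Within every group the arrays correlated at 0.905 or above on the log2 scale, over the 19957 probe sets that reached 50 on 5 or more arrays. Gfap, the intermediate filament of astrocytes, was high on all arrays (between 6722 and 14270), and so was Mbp of the myelin of oligodendrocytes (between 9520 and 17720). Other astrocyte markers were lower, down to Slc1a2 between 133 and 1192. Retinal photoreceptor markers varied widely within most groups, with summed intensities of 285 to 33570 in crushed and 346 to 7919 in contralateral ONHs at 1 day. A few arrays stood apart for the genes described here. In naive replicate 5, 29 of the 35 genes were lower than the mean of the other 4 naive samples, and in contralateral 1 week replicate 5 the count was 28 of 35. Crushed 3 months replicates 2 and 3 were lower than the mean of the other 4 samples of their group for 30 and 29 of the 35 genes. Contralateral 3 months replicate 1 differed at least 2-fold from the mean of the other 4 samples of its group at 3062 probe sets, the most of any array, and crushed 3 months replicate 2 followed at 1561. The counts for 1 week, 3 months and the naive comparison are given below with and without these arrays.

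At 1 day after crush, 32 of the 35 genes were higher in crushed than in contralateral ONHs, 1 was lower and 2 did not pass (limma, adjusted p under 0.05). Of all probe sets tested, 25.8% were higher and 28.0% were lower at that time, and of all genes taken by their brightest probe set, 25.4% were higher and 29.7% were lower. A change of at least 2-fold was reached by 18 of the 32 genes, against 7.02% of all probe sets for higher values. The median log2 fold change was 1.03, and the corresponding median of all probe sets was -0.03. The medians of the 5 pairs, each a crushed and a contralateral sample with the same replicate number, were 1.01, 1.10, 0.94, 0.83 and 1.13, so every pair showed the rise. The crushed and contralateral samples did not overlap for 31 genes that were higher and 1 that was lower, while 22.4% of all genes did not overlap in the higher direction and 24.9% in the lower.

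**Figure D1:**
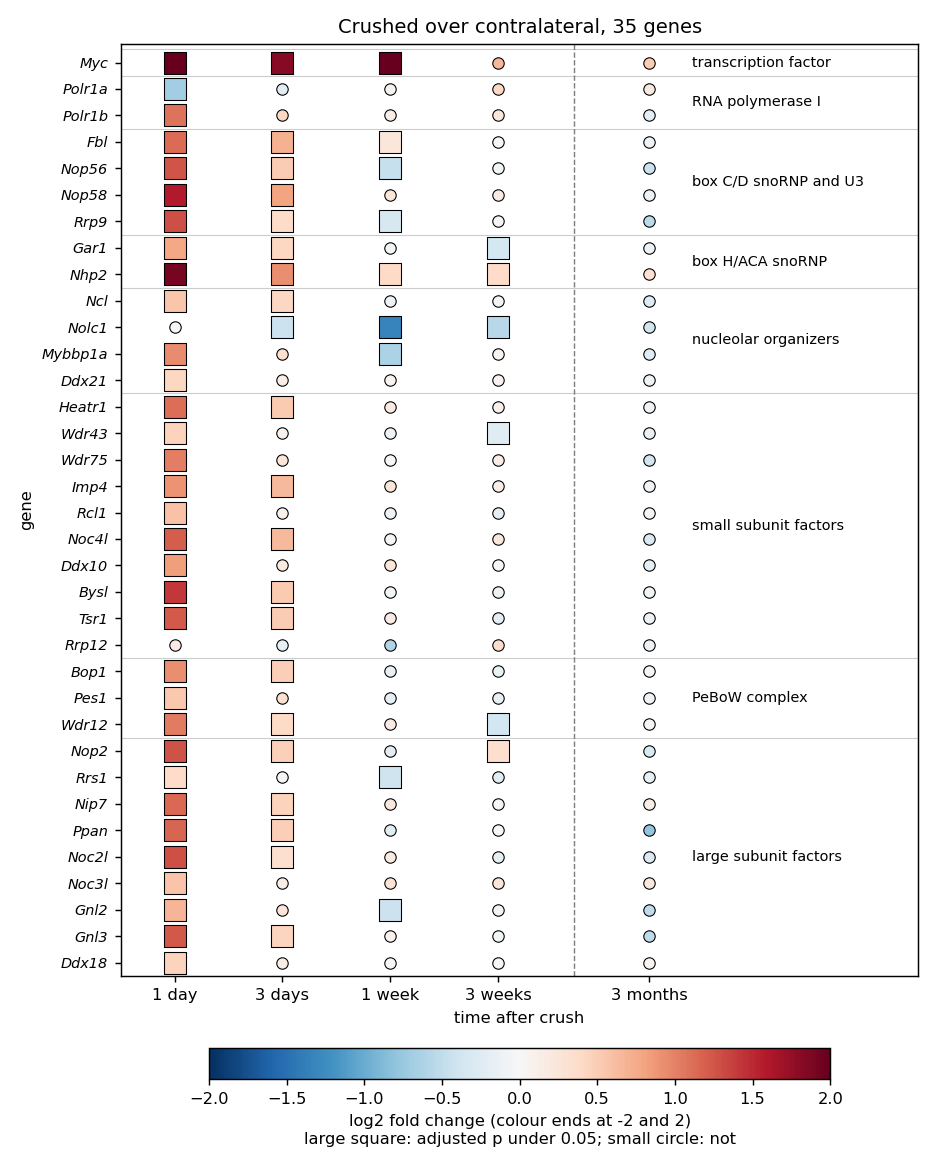
Log2 fold change of crushed over contralateral ONHs for each of the 35 genes (rows, grouped by role) at each time after crush (columns, with the 3 months samples of the second batch right of the dashed line). Colour gives the log2 fold change, large squares mark adjusted p under 0.05 and small circles mark values that did not pass; 32 squares in the 1 day column are red, and none stands at 3 months.

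Myc had the largest change of the 35 genes at 1 day. Its intensities at 1 day were 1382, 1771, 779, 794 and 1682 in crushed ONHs, against 104, 99.4, 127, 111 and 117 in contralateral ONHs. All 5 crushed samples stood above all contralateral samples, with replicates 3 and 4 the lowest of the crushed group. The log2 fold change was 3.44 ± 0.25 (SE in limma, n = 5 pairs, adjusted p = 9.4e-10). This SE rests on a spread shared by the times up to 3 weeks, as do those given below for these times. At 3 days the crushed samples had 586, 389.7, 541, 359 and 404 and the contralateral samples had 103, 149, 110.1, 141 and 137. At 1 week the crushed samples had 279, 207, 361, 279.6 and 371, against 58.0, 122, 52.9, 78.0 and 76.3 in contralateral samples. Neither time showed any overlap, and the log2 fold changes were 1.82 ± 0.25 (adjusted p = 7.5e-06) at 3 days and 1.99 ± 0.25 (adjusted p = 2.7e-06) at 1 week. At 3 weeks the crushed samples had 139.6, 111, 121, 160.4 and 137 and the contralateral samples had 86.5, 77.5, 101, 82.6 and 73.1, again without overlap, but the log2 fold change of 0.67 ± 0.25 did not pass in limma (adjusted p = 0.060), while the fit without pairs gave an adjusted p of 0.018. At 3 months the groups overlapped, at 198 to 358 in crushed and 115 to 253 in contralateral ONHs (log2 fold change 0.51 ± 0.27, adjusted p = 0.42). Naive samples had between 60.4 and 133 in the first batch. The crush effect on Myc was smaller at 3 days than at 1 day by 1.62 ± 0.35 (a difference of log2 fold changes of -1.62, adjusted p = 0.0038), and it was smaller at 3 weeks than at 1 week (-1.32). No difference between 1 week and 3 days passed.

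**Figure D2:**
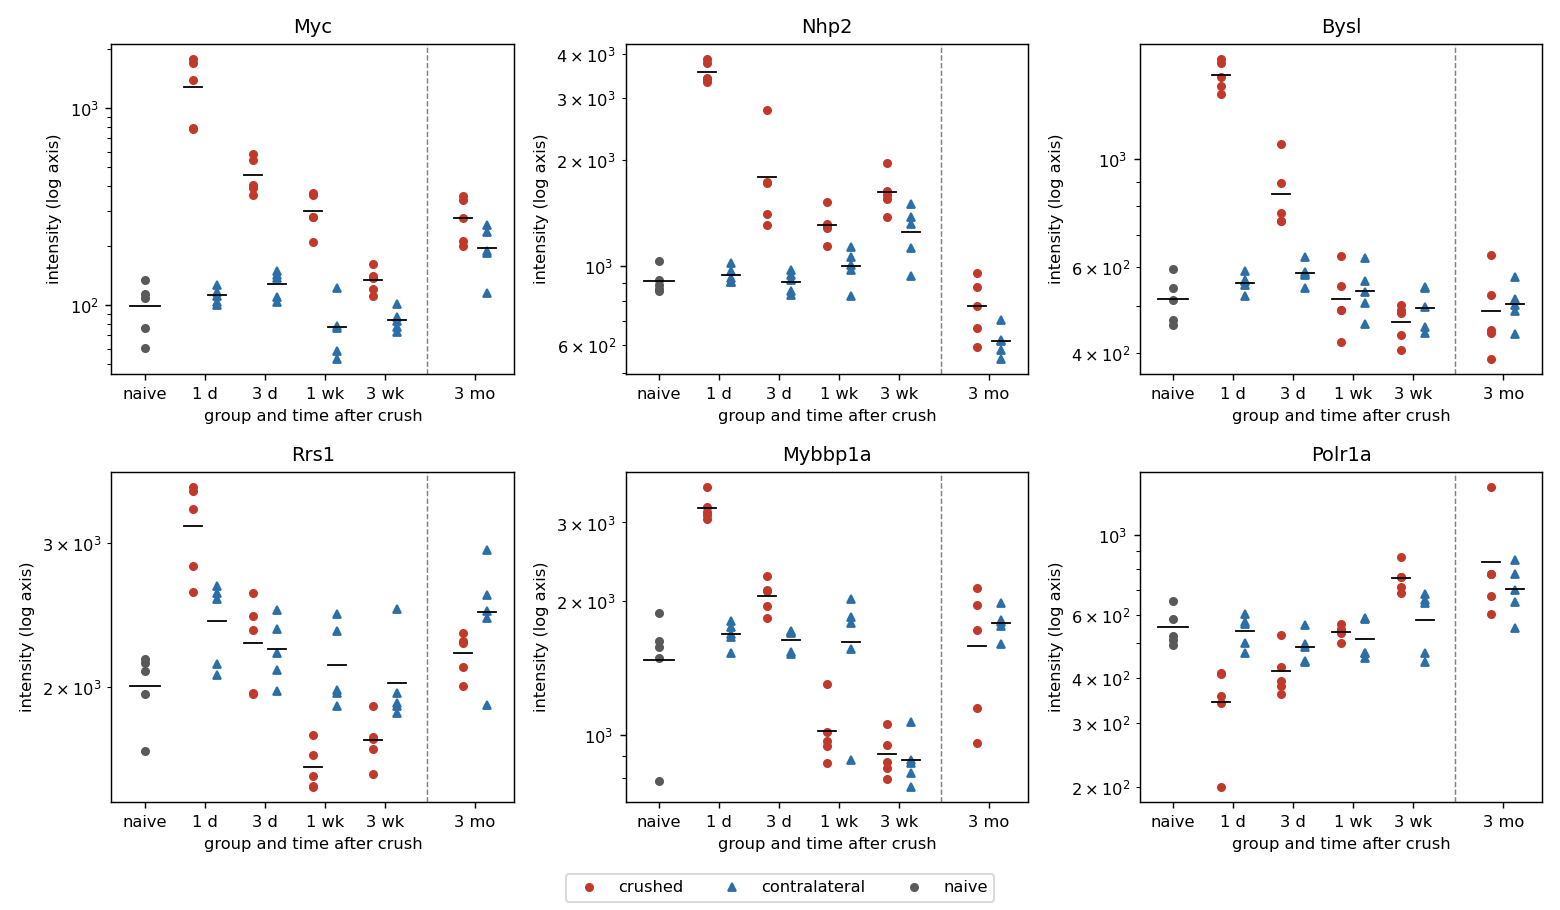
Intensity (log axis) of 6 of the genes in each sample, with crushed (red circles) left of contralateral (blue triangles) at each time and naive (grey) at the left end; black lines are group means of 5 samples and the dashed line separates the second batch. Myc in crushed samples stands above contralateral samples at every time up to 3 weeks, whereas Nhp2, Bysl and Mybbp1a separate most widely at 1 day.

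Among the partners and rivals of Myc, 15 further genes of the Myc and Max network were measured. At 1 day 3 of them were higher and 6 lower, against 25.8% and 28.0% of all probe sets. The median log2 fold change was -0.02. The 3 that were higher, named after their values were seen, were Max, Mlx and Mxd3. Max, the obligate partner, was higher by 0.27 (adjusted p = 0.0010), Mlx, the partner of the sugar-sensing branch of the network, by 0.56 (adjusted p = 3.1e-06) and Mxd3 by 0.51 (adjusted p = 1.1e-06). The relative Mycl had the largest change of the list, with a log2 fold change of -1.89 ± 0.34 (adjusted p = 7.5e-05). Mycl and Mxd1 were dim, and neither was tested at 3 months because fewer than 5 arrays there reached an intensity of 50. The partners of Max that oppose Myc did not move together. Mxd3 is one of them and was higher, whereas Mxd4 (log2 fold change -0.79, adjusted p = 1.8e-05), Mga (-0.62, adjusted p = 0.00020), Mxi1 (-0.60, adjusted p = 2.0e-06) and Mnt (-0.35, adjusted p = 0.010) were lower, and Mxd1 had -0.08 (adjusted p = 0.85). The sixth lower gene was Mlxipl of the sugar-sensing branch (-0.52, adjusted p = 0.041). Mycn had a log2 fold change of 0.67 at 1 day that did not pass (adjusted p = 0.11) and 0.91 at 3 days (adjusted p = 0.043).

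A set of 22 known Myc targets outside the ribosome was also counted, of which 19 were measured. At 1 day 17 of them were higher and 1 was lower, against 25.8% and 28.0% of all probe sets. The median log2 fold change was 0.51. At 3 days 16 were higher and 2 lower, against 25.2% and 15.2%, with a median of 0.27. The largest changes at 1 day were in Umps (1.57) and Cad (0.99), enzymes of pyrimidine synthesis, Shmt2 (1.22), the mitochondrial serine hydroxymethyltransferase, and the nucleoside diphosphate kinase Nme1 (0.98). The gene that fell at 1 day, named after its value was seen, was Ccnd2 (cyclin D2), with a log2 fold change of -0.34 (adjusted p = 0.00049). At 1 week 5 of the 19 were higher and 5 lower, near the background of 23.0% and 19.2% of all probe sets.

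The sequence that Myc and Max are known to bind best is the E-box CACGTG, so the promoters of the genes were searched for it on both strands (the motif reads the same on each). RefSeq promoter windows, from 250 bases before to 50 bases after the annotated start, were at hand for 29 of the 35 genes on build GRCm38.p6, and Myc, Fbl, Rrp12, Bop1, Rrs1 and Gnl2 had none in the table. Of these, 6 of 29 held CACGTG, against 8.09% of 27025 genes with a window. The 6 stretches are shown because they let the letters be read beside the measured changes, with the E-box and, in Nop2, the second motif in capitals.
Nop2, the 100 bases before the start, chr6:125131783-125131882, plus strand: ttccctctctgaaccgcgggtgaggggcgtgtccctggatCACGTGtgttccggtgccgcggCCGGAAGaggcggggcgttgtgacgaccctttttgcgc
Imp4, chr1:34439696-34439725, plus strand: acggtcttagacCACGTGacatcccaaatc
Pes1, chr11:3963965-3963994, plus strand: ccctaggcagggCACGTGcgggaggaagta
Tsr1, chr11:74898092-74898121, plus strand: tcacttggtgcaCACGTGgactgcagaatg
Mybbp1a, chr11:72441347-72441376, plus strand: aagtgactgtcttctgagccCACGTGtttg
Wdr43, chr17:71616220-71616249, plus strand: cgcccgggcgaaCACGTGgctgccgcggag

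In Nop2 and Imp4 the E-box began 60 and 121 bases before the annotated start, and in Pes1, Tsr1, Wdr43 and Mybbp1a it began at base 3, 25, 18 and 41 of the transcript, counting the start as base 1. The 6 genes spanned a wide range of responses at 1 day, with log2 fold changes of 1.27 for Nop2, 1.22 for Tsr1, 0.94 for Mybbp1a, 0.91 for Imp4, 0.54 for Pes1 and 0.45 for Wdr43. The second motif, CCGGAAG searched on both strands, is the core bound by ETS family factors, and 11 of the 29 genes held it, against 9.93% of all genes with a window. Besides Nop2 and Tsr1 these were Gar1, Noc2l, Nip7, Ppan, Ddx10, Nhp2, Heatr1, Noc3l and Nolc1. The core bound by the factor NRF1, which is GCGC followed by any single base and then TGCGC and was searched on both strands, was held by 6 of 29, against 5.19% of all genes. The genes holding CCGGAAG ranged at 1 day from Nolc1 (-0.02) to Nhp2 (1.91), and a match to a short motif is a description of the letters only.

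RNA polymerase I makes the precursor of the large ribosomal RNAs, and the subunits Polr1a and Polr1b moved in opposite directions by their brightest probe sets. Polr1b, the second-largest subunit, had 438, 468, 293, 272 and 378 in crushed ONHs at 1 day, against 166, 181, 142, 198 and 173 in contralateral ONHs. These did not overlap, and the log2 fold change was 1.08 ± 0.17 (adjusted p = 1.9e-05). Polr1a, which carries the catalytic core, had 342, 412, 409.6, 357 and 199 in crushed ONHs, against 563, 499.8, 469, 602 and 571 in contralateral ONHs, without overlap and with replicate 5 the lowest crushed sample. This was the single fall among the 35 genes at 1 day (log2 fold change -0.69 ± 0.16, adjusted p = 0.00090). Both dimmer probe sets of Polr1a pointed the other way, at 0.36 ± 0.13 (adjusted p = 0.025) and 0.34 ± 0.20 (adjusted p = 0.15), so the direction for Polr1a depended on the probe set. By its brightest probe set Polr1a did not pass at any later time, at log2 fold changes of -0.23 at 3 days, 0.07 at 1 week, 0.41 at 3 weeks and 0.20 at 3 months. At 1 week its dimmer probe sets gave -0.95 ± 0.20 (adjusted p = 0.00061) and 0.18 ± 0.13 (adjusted p = 0.29). Polr1b did not pass at these later times either, at 0.42 (adjusted p = 0.055), 0.14, 0.23 and -0.19.

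Of 18 other components of the RNA polymerase I machinery, 14 were measured. At 1 day 8 of them were higher and none lower, against 25.8% and 28.0% of all probe sets. Their median log2 fold change was 0.36. The largest were in Polr1e (1.47 ± 0.10, adjusted p = 3.4e-10) and Polr1d (0.96 ± 0.08, adjusted p = 1.0e-08), both subunits of the enzyme, followed by Polr2h (0.71) and Polr2f (0.58), small subunits shared between the nuclear polymerases. At 3 days the same list had 5 higher and 1 lower, against 25.2% and 15.2% of all probe sets. The lower gene was Taf1a, a subunit of the promoter selectivity factor SL1 (log2 fold change -1.35). Of the other Taf1 genes, Taf1d was higher (0.92, adjusted p = 4.4e-06), and Taf1b (0.17) and Taf1c (0.24) did not pass.

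The box C/D snoRNPs place methyl groups on ribosomal RNA and, as U3, organise the first cuts of the precursor, and all 4 of their measured proteins rose at 1 day. Fbl, fibrillarin, the methyltransferase, had 4229.5, 4344, 4168, 4012 and 4219 in crushed ONHs, against 1988, 1961, 1878.5, 1915.5 and 1810.3 in contralateral ONHs. Every crushed sample was more than every contralateral sample, and the log2 fold change was 1.14 ± 0.07 (adjusted p = 1.9e-10). Nop58, a scaffold of the particle, had 2082, 2415, 2184, 2012 and 2196, against 661, 739, 676, 822 and 746. Nop58 had the largest change of the group, 1.58 ± 0.10 (adjusted p = 3.0e-10). Its paired scaffold Nop56 rose by 1.26 ± 0.10 and the U3 protein Rrp9 by 1.29 ± 0.12. At 3 days all 4 were still higher, at 0.71, 0.81, 0.50 and 0.38 for Fbl, Nop58, Nop56 and Rrp9. At 1 week Fbl remained higher by 0.24 (adjusted p = 0.0098), Nop56 was lower with a log2 fold change of -0.46 (adjusted p = 0.00065), Rrp9 was lower with -0.34 (adjusted p = 0.031), and Nop58 did not pass at 0.24 (adjusted p = 0.071). None of the 4 passed at 3 weeks or at 3 months. At 1 week a dimmer Fbl probe set gave 0.21 (adjusted p = 0.082) and a dimmer Nop56 set gave -0.29 (adjusted p = 0.019).

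The box H/ACA snoRNPs convert uridines of ribosomal RNA to pseudouridine. Nhp2, a core protein of the particle, had 3392, 3763, 3339, 3412 and 3869.7 in crushed ONHs at 1 day, against 926, 1021, 902, 902 and 969 in contralateral ONHs. After Myc it had the largest change of the list, a log2 fold change of 1.91 ± 0.12 (adjusted p = 3.0e-10) with no overlap. Gar1, another core protein, had 3692, 4051, 2867, 3184.5 and 3833, against 1985, 2244, 2072.5, 1899.6 and 2055.5, and rose by 0.77 ± 0.08 (adjusted p = 6.6e-08). Both were higher at 3 days (Nhp2 0.94, Gar1 0.44). Nhp2 stayed higher at 1 week (0.39, adjusted p = 0.015) and at 3 weeks (0.38, adjusted p = 0.031), and had 0.32 at 3 months (adjusted p = 0.39). A dimmer Nhp2 probe set gave 1.94 (adjusted p = 1.4e-08) at 1 day and 0.89 (adjusted p = 0.00035) at 3 days. It did not pass at 1 week (0.39, adjusted p = 0.073) or at 3 weeks (0.25, adjusted p = 0.34). At 3 weeks Gar1 had 1384, 1294.5, 1298.5, 1388 and 1459.7 in crushed ONHs, all below the contralateral 1752, 1624.5, 1582, 1786 and 1948 (log2 fold change -0.35 ± 0.08, adjusted p = 0.0028).

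Of the general nucleolar proteins, Ncl, Mybbp1a and Ddx21 rose at 1 day and Nolc1 did not pass. Ddx21, a nucleolar RNA helicase, had 7589, 7666, 7189, 7108 and 7530.1 in crushed ONHs, against 5233, 5671, 5210.5, 5956 and 5411 in contralateral ONHs, and the log2 fold change was 0.43 ± 0.07 (adjusted p = 1.9e-05). A dimmer Ddx21 probe set, at a mean intensity of 383 over all arrays, gave 2.09 ± 0.22 (adjusted p = 1.6e-07). Mybbp1a, the Myb-binding protein of the nucleolus, had 3256.5, 3602.5, 3159, 3062 and 3114 against 1801, 1660.4, 1690, 1526 and 1745, a log2 fold change of 0.94 ± 0.14 (adjusted p = 7.4e-06). Nucleolin (Ncl), which organises ribosomal chromatin and the precursor RNA, rose by 0.56 ± 0.08 at 1 day and 0.42 ± 0.08 at 3 days. By the brightest probe sets this was the largest share of a first rise kept by any gene (76.2% of the log2 fold change). Dimmer Ncl probe sets gave 0.65, 0.62 and 0.48 at 1 day and, in the same order, 0.16 (adjusted p = 0.17), 0.39 and 0.34 at 3 days.

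Nolc1, a chaperone of snoRNPs, and Rrp12 were the genes that did not pass at 1 day, and they are singled out here after their values were seen. Nolc1 had 3106, 2921, 2971, 3079 and 2528 in crushed ONHs, against 3228, 3088, 2866, 2874 and 2751 in contralateral ONHs, which overlapped (log2 fold change -0.02 ± 0.16, adjusted p = 0.92). At 3 days it was lower in all 5 pairs (-0.43 ± 0.16, adjusted p = 0.040). At 1 week it had the largest fall of the list, with 971, 971, 925, 886 and 948 in crushed ONHs against 2457, 2875, 2658, 2609 and 1495 in contralateral ONHs (-1.33 ± 0.16, adjusted p = 1.8e-06). At 3 weeks both sides were low, at 568 to 1034 in crushed and 802 to 1707 in contralateral ONHs (-0.55 ± 0.16, adjusted p = 0.018). Its 2 dimmer probe sets gave 1.08 ± 0.26 (adjusted p = 0.0013) and 0.32 ± 0.14 (adjusted p = 0.070) at 1 day, so Nolc1 at 1 day depended on the probe set. At 3 days they gave 0.57 (adjusted p = 0.084) and -0.10 (adjusted p = 0.61), so the fall at that time passed by the brightest probe set only. At 1 week they gave -0.49 (adjusted p = 0.13) and -1.05 (adjusted p = 7.2e-06).

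The small subunit factors work in the early precursor particle and on its path to the cytoplasm, and 9 of 10 measured genes rose at 1 day, with a median log2 fold change of 0.97. Wdr43, a component of the early particle, had 3457, 4288, 3425, 3080.2 and 3727 in crushed ONHs, against 2589.6, 2728, 2414, 2566 and 2763 in contralateral ONHs (log2 fold change 0.45 ± 0.06, adjusted p = 1.3e-06, no overlap). Bysl, bystin, needed for maturation of the small subunit, had 1607, 1414, 1359.8, 1477 and 1574, against 564, 562, 523, 551 and 591. A dimmer Bysl probe set gave a log2 fold change of 0.66 ± 0.10 (adjusted p = 2.1e-05). The samples of the brightest set were far apart, and its log2 fold change of 1.41 ± 0.09 (adjusted p = 3.3e-10) was the largest of the group. The next were Tsr1 (1.22), which resembles a GTPase and acts late, Noc4l (1.22), Heatr1 (1.11) and Wdr75 (1.03), the last 2 being proteins that act on ribosomal RNA transcription and its early processing. Imp4 (0.91), a partner of the U3 particle, the helicase Ddx10 (0.84) and Rcl1 (0.59) also passed. Rrp12 had log2 fold changes of 0.16 ± 0.33 at 1 day (adjusted p = 0.71) and -0.60 at 1 week (adjusted p = 0.15), and its standard error was the largest of the 35 genes at these times. At 3 days Imp4 (0.65), Noc4l (0.65), Heatr1 (0.53), Bysl (0.52) and Tsr1 (0.51) were higher, while Wdr43, Wdr75, Rcl1, Ddx10 and Rrp12 did not pass. By dimmer probe sets Wdr43 (0.49, adjusted p = 0.0076) and Noc4l (0.75 and 0.81) were higher at 3 days. The dimmer sets of Imp4, Heatr1, Bysl, Ddx10 and Wdr75 did not pass, with Bysl at 0.03 (adjusted p = 0.83). None of the 10 passed at 1 week, and Wdr43 was lower at 3 weeks, with a log2 fold change of -0.24 (adjusted p = 0.0043).

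The Pes1, Bop1 and Wdr12 proteins form the PeBoW complex, which is needed to mature the large subunit, and all 3 rose at 1 day. Wdr12 had the largest change of the 3, with 1968, 2093, 1908.5, 1726 and 2227 in crushed ONHs, against 934, 973, 996, 991 and 929.7 in contralateral ONHs. The groups did not overlap, at a log2 fold change of 1.04 ± 0.09 (adjusted p = 6.1e-09). Bop1 rose by 0.93 ± 0.13 and Pes1 by 0.54 ± 0.13. At 3 days Bop1 (0.50) and Wdr12 (0.40) were higher and Pes1 had 0.32 (adjusted p = 0.052). The dimmer Wdr12 probe set gave 0.68 (adjusted p = 0.0011) at 1 day, 0.04 (adjusted p = 0.88) at 3 days and -0.22 (adjusted p = 0.36) at 3 weeks. The dimmer Pes1 set gave 0.26 (adjusted p = 0.14) at 1 day and -0.23 (adjusted p = 0.23) at 3 days. At 3 weeks Wdr12 was below every contralateral sample, at 719, 798, 820.4, 672 and 749 in crushed ONHs against 905.5, 1034, 1041, 892 and 951 (log2 fold change -0.36 ± 0.09, adjusted p = 0.0049).

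All 9 large subunit factors rose at 1 day, with a median log2 fold change of 1.15. Rrs1, which helps bring in the 5S ribosomal RNA, had the smallest rise of all the genes that passed, with 3302, 3479, 2612, 2811 and 3513 in crushed ONHs against 2135, 2657, 2068, 2605 and 2563 in contralateral ONHs. Crushed replicate 3 lay below contralateral replicate 2, and the log2 fold change was 0.38 ± 0.10 (adjusted p = 0.0019, higher in 5 of 5 pairs). Noc2l, a chaperone-like factor of the early large subunit that also binds histones, had 1364, 1356, 1004, 1306 and 1559.6, against 537, 541, 524, 532 and 525. It showed no overlap and had the largest change of the group (1.29 ± 0.13, adjusted p = 6.9e-08). Nop2, a ribosomal RNA methyltransferase (1.27), Gnl3, nucleostemin, a GTP-binding protein of proliferating cells (1.25), Ppan (1.17) and Nip7 (1.15) were close to it. Smaller rises were found in Gnl2 (0.68), Noc3l (0.56) and the helicase Ddx18 (0.47). At 3 days Ppan, Nop2, Nip7, Gnl3 and Noc2l were higher (0.49, 0.48, 0.46, 0.45 and 0.34), and Rrs1, Noc3l, Gnl2 and Ddx18 did not pass. The dimmer Nip7 probe set gave 0.53 (adjusted p = 0.0029) at 1 day and 0.01 (adjusted p = 0.95) at 3 days. Dimmer sets of Gnl2 gave 0.70 (adjusted p = 5.0e-05) and -0.42 (adjusted p = 0.089) at 1 day, and one of Ddx18 gave 0.49 (adjusted p = 8.5e-05). At 1 week Rrs1 was lower in all 5 pairs, with 1507, 1554, 1649, 1514 and 1745 in crushed ONHs against 1982, 2454, 2343, 1969 and 1898 in contralateral ONHs (-0.41 ± 0.10, adjusted p = 0.0016), and Gnl2 was lower as well (-0.44, adjusted p = 0.0050). At 3 weeks Nop2 alone of this group passed, and it was higher in crushed than in contralateral ONHs (0.34, adjusted p = 0.029). Its mean intensity was then 494 in crushed and 390 in contralateral ONHs, against 596 in naive ONHs (383 to 701).

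The rise was short. At 3 days 20 of the 35 genes were higher and 1 (Nolc1) was lower, against 25.2% and 15.2% of all probe sets, with a median log2 fold change of 0.42 and 0.04 over all probe sets. The 3 days samples did not overlap for 20 genes that were higher and 1 that was lower, against 20.8% and 11.1% of all genes. Of the 32 genes that rose at 1 day, all 32 had their largest log2 fold change of the first batch at that time. Choosing them by their 1 day value favours this outcome and lowers the share left later. A median of 38.6% of the log2 rise was left at 3 days, from 5.67% for Rrs1 to 76.2% for Ncl. At 1 week 3 of the 35 were higher (Myc, Fbl and Nhp2) and 6 lower (Nolc1, Mybbp1a, Nop56, Gnl2, Rrs1 and Rrp9), against 23.0% and 19.2% of all probe sets, so the shares of the list lay at or below the background in both directions. The dimmer probe sets of Fbl and Nhp2 did not pass at 1 week. Non-overlap at 1 week was found for 3 genes that were higher and 3 lower, against 12.5% and 10.8% of all genes. The median log2 fold change was -0.03 at 1 week and -0.01 at 3 weeks, when 2 genes were higher and 4 lower against 10.4% and 12.1% of all probe sets. In the fit without pairs 4 were higher at 3 weeks, Myc among them, and 4 lower. Here 3 genes did not overlap in each direction, against 9.61% and 8.66% of all genes. These small counts moved with single pairs: without the pair of replicate 3 at 1 week 8 genes were higher and without that of replicate 4 1 was, and leaving out any 1 of the 3 weeks pairs left 0 or 1 gene higher there. Nolc1 at 3 days kept its call in 1 of the 5 fits that left out a pair.

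The fall of the crush effect was tested by contrasts between times. From 1 day to 3 days the effect became smaller for 22 of the 35 genes and larger for 0, against 4.09% and 10.9% of all probe sets (at unadjusted p under 0.05, 28 and 1, against 8.45% and 19.8%). The largest declines after Myc were in Nhp2 (-0.98), Noc2l (-0.95), Rrp9 (-0.92) and Bysl (-0.89). From 3 days to 1 week it became smaller for 15 genes and larger for 0 (6.83% and 2.98% of all probe sets, with 21 and 0 at unadjusted p under 0.05, against 16.1% and 9.06%), led by Nop56 (-0.96), Mybbp1a (-0.95) and Nolc1 (-0.90). From 1 week to 3 weeks 3 genes went down (Myc, Wdr12 and Tsr1) and 3 went up (Nolc1, Mybbp1a and Nop2), against 9.25% and 5.95% of all probe sets. In place of these 6 genes, 2 and 3 passed without the 1 week pairs of replicates 1 and 2, and 3 without the 3 weeks pair of replicate 4. Between 1 day and 3 weeks the effect was smaller for 31 genes, against 18.8% of all probe sets, and larger for Polr1a alone (1.10), against 18.4%.

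**Figure D3:**
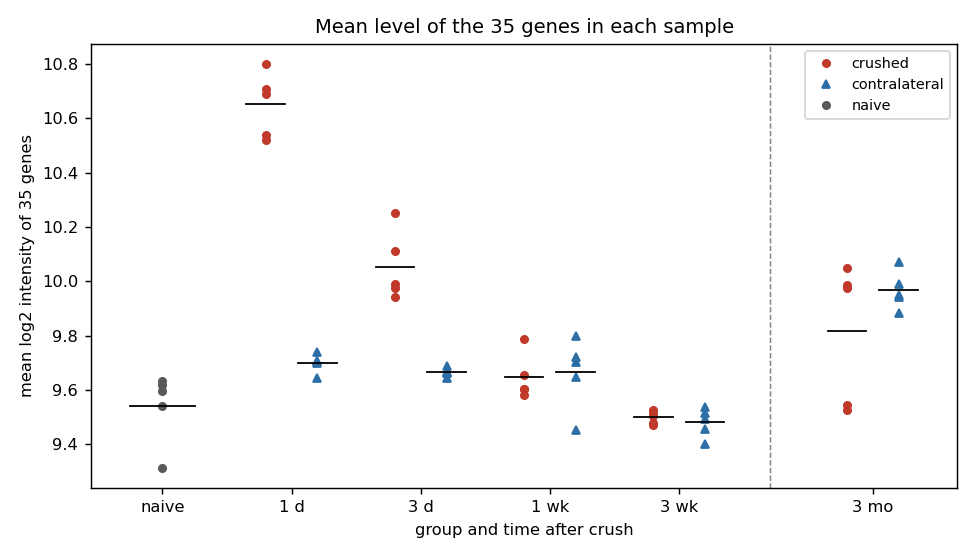
Mean log2 intensity of the 35 genes in each sample, with crushed (red circles) left of contralateral (blue triangles) at each time and naive (grey) at the left end; black lines are group means and the dashed line separates the second batch. The 1 day crushed samples lie between 10.52 and 10.80, above all other samples of the first batch, and 1 naive and 1 contralateral 1 week sample lie below the rest of their groups.

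The mean log2 intensity of the 35 genes gave one value per sample for this time course. It was 10.65 ± 0.12 in crushed and 9.70 ± 0.035 in contralateral ONHs at 1 day (SD, n = 5 each), and 10.05 ± 0.13 and 9.67 ± 0.015 at 3 days. At 1 week it was 9.65 ± 0.08 in crushed and 9.67 ± 0.13 in contralateral ONHs, and at 3 weeks 9.50 ± 0.025 and 9.48 ± 0.054, so at these 2 times the groups overlapped. In naive ONHs it was 9.54 ± 0.13. At 3 months, in the second batch, it was 9.82 ± 0.26 in crushed and 9.97 ± 0.07 in contralateral ONHs, with crushed replicates 2 and 3 at 9.54 and 9.53 and the other 3 crushed samples between 9.98 and 10.05.

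At 3 months none of the 35 genes passed in either direction in limma, and 0.223% of all probe sets were higher and 0.377% lower. At unadjusted p under 0.05, 0 genes were higher and 1 was lower, against 6.69% and 7.38% of all probe sets. By the methods' t-test, paired and unadjusted, 1 was higher and 1 lower, against 5.86% and 6.13%. No gene separated the groups, against 3.82% of all genes for higher and 3.57% for lower values, and the median log2 fold change was -0.12. By pair the median was -0.08, -0.43, -0.32, 0.08 and 0.13, the lowest being the pairs of crushed replicates 2 and 3. In these 2 samples Mybbp1a had 1149 and 962, against 1723, 2136 and 1963 in the other crushed samples and 1602 to 1977 in contralateral ONHs. Without the pairs of replicates 2 and 3, an alternative chosen after seeing the data, 0 genes passed in limma, 1 was higher and 0 lower at unadjusted p under 0.05, and the median log2 fold change was 0.01. Contralateral replicate 1 had 2672 for Wdr75, against 1400 to 1631 in the other contralateral samples, and without its pair 0 genes passed, 0 were higher and 1 lower at unadjusted p under 0.05, and the median was -0.18. The summed intensity of the 5 skeletal muscle markers reached 22570 in 1 crushed sample at 3 months, with a group median of 356, against 305 to 4048 in contralateral ONHs, and the part of such tissue in the values was not tested.

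The contralateral eye was compared with the naive eye as a check of the reference. At the first 3 times 0 of the 35 genes passed in limma (0.0161%, 0.0% and 0.546% of all probe sets passed in either direction). At unadjusted p under 0.05 the counts of genes higher in contralateral ONHs were 9 at 1 day, 3 at 3 days and 7 at 1 week, against 4.97%, 3.75% and 9.83% of all probe sets. None was lower at that threshold, against 1.82%, 1.79% and 4.57%. The methods' t-test, here unpaired and unadjusted, gave 10, 6 and 4 in either direction, against 8.23%, 5.95% and 7.77%. The median log2 difference, contralateral over naive, was 0.17, 0.13 and 0.13, when all probe sets had 0.03, 0.02 and 0.05. Without naive replicate 5 the median of the genes was 0.09, 0.06 and 0.09, 0 passed at these times, and 5, 0 and 6 were higher and 0, 0 and 1 lower at unadjusted p under 0.05. At 3 weeks 1 gene was higher in contralateral ONHs and 3 were lower, against 4.22% and 5.92% of all probe sets. Nhp2 was the higher one (0.45, adjusted p = 0.012), and Nolc1 (-1.09, adjusted p = 0.0054), Mybbp1a (-0.69, adjusted p = 0.024) and Nop2 (-0.58, adjusted p = 0.016) were the lower ones. Without naive replicate 5, 1 of the 35 genes was higher and 7 were lower at 3 weeks, with Nhp2 at 0.45, Nolc1 at -1.36, Mybbp1a at -0.90 and Nop2 at -0.73, and without naive replicate 1 or 3 the count was 2.

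For Nolc1 and Mybbp1a a single array decided part of the spread. Nolc1 had 1161 in naive replicate 5 and 2739 to 3115 in the other naive samples, and 1495 in contralateral 1 week replicate 5 and 2457 to 2875 in the other contralateral samples of that time. Mybbp1a had 788 in naive replicate 5, against 1493 to 1879 in the other naive samples, and 880 in contralateral 1 week replicate 5, against 1560 to 2023. At 3 weeks Mybbp1a was low on both sides, at 798 to 1062 in crushed and 764 to 1070.5 in contralateral ONHs. In the pair of replicate 5 at 1 week, Mybbp1a was 943 in the crushed and 880 in the contralateral sample, the only pair in which it was not lower after crush. Without this pair the 1 week log2 fold changes were -0.81 for Mybbp1a (adjusted p = 4.9e-05) and -1.50 for Nolc1 (adjusted p = 1.0e-06), and 4 genes were higher and 7 lower.

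The brightest probe set stood for each gene, and 20 of the 35 genes had 1 or more further probe sets, 27 in all, of which 26 were tested. The probe sets used for Fbl, Nop56, Gar1, Nhp2, Wdr43, Tsr1 and Noc4l carry a suffix that marks probes possibly shared with other transcripts. At 1 day 20 of these 26 were higher and 0 lower, 18 of them passing in the same direction as the brightest set of their gene and 1 (Polr1a) in the opposite direction. Their median log2 fold change was 0.66, and of all probe sets 25.8% were higher and 28.0% lower. At 3 days 9 were higher and 0 lower, against 25.2% and 15.2% of all probe sets. At 1 week 1 was higher and 7 lower, against 23.0% and 19.2%.

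**Figure D4:**
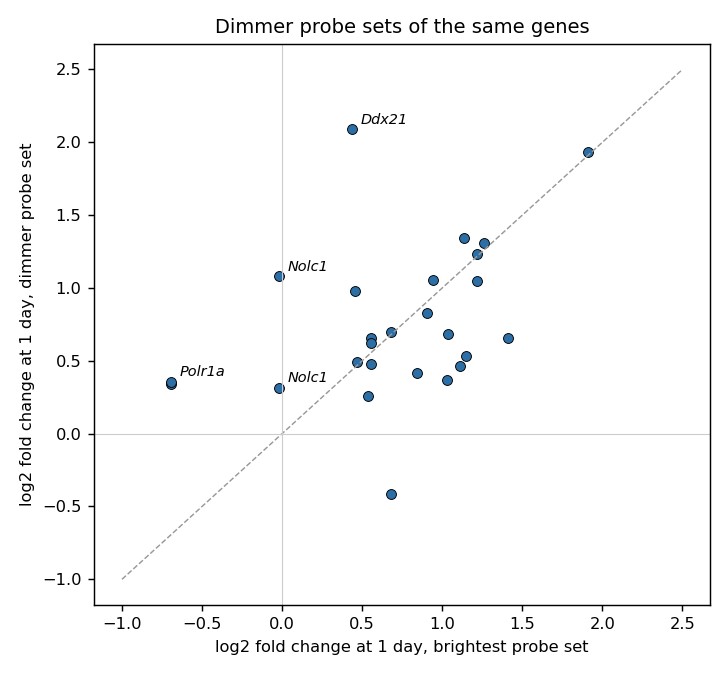
Log2 fold change at 1 day, crushed over contralateral, of each of 26 dimmer probe sets (vertical axis) against that of the brightest probe set of the same gene (horizontal axis), with the line of equal values dashed. Most points lie in the upper right; both Polr1a sets lie at upper left (the brightest at -0.69), one Nolc1 set reaches 1.08, and Ddx21 lies far above the line at 2.09 against 0.43.

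Of 106 further assembly factors, 82 were measured, and at 1 day 64 were higher and 3 lower, with a median log2 fold change of 0.63. At that time 25.8% of all probe sets were higher and 28.0% lower. The largest were Grwd1 (1.54), a chaperone of ribosomal protein L3, Rrp15 (1.33), Ebna1bp2 (1.27) and Nop9 (1.26). At 3 days 45 were higher and 6 lower (median 0.30), against 25.2% and 15.2% of all probe sets. At 1 week 13 were higher and 19 lower (median -0.07), against 23.0% and 19.2%. At 3 weeks 2 were higher and 4 lower (median -0.02), against 10.4% and 12.1%. At 3 months none passed, against 0.223% and 0.377%. At 1 week Krr1 (1.47), a small subunit factor, stood against Tcof1 (-1.20), the treacle protein that supports RNA polymerase I.

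Of 44 cytosolic ribosomal proteins tested, 15 were higher and 0 lower at 1 day, against 25.8% and 28.0% of all probe sets, with a median log2 fold change of 0.08. At 3 days 26 were higher and 0 lower, against 25.2% and 15.2%, with a median of 0.14. The largest at 1 day were Rpl14 (1.58), Rpl12 (1.48) and Rps25 (1.34). At 3 weeks 0 were higher and 11 lower, against 10.4% and 12.1%. Of 74 mitochondrial ribosomal proteins, 59 were higher and 0 lower at 1 day, against 25.8% and 28.0% of all probe sets. Their median was 0.41, with the largest in Mrpl12 (1.04) and Mrps22 (1.02). At 3 days 35 were higher and 0 lower, against 25.2% and 15.2%, with a median of 0.24.

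Genes of mitosis and DNA replication followed a different course. At 1 day 17 of the 19 measured were higher, against 25.8% of all probe sets, with a median log2 fold change of 1.74. At 3 days all 19 were higher, against 25.2%, with a median of 3.11. The change from 1 day to 3 days was upward for 10 of the 19 and downward for 0. The 35 genes had 0 upward and 22 downward in the same contrast, and of all probe sets 10.9% went up and 4.09% down. At 1 day replication genes led (Mcm5 at 3.37 and Rrm2 at 2.62), and at 3 days mitotic genes (Bub1 at 5.01, Ccnb2 at 4.91, Plk1 at 4.70 and Aurkb at 4.66). At 1 week 16 of the 19 were still higher, against 23.0% of all probe sets, with a median of 1.98. At 3 weeks none passed as higher or lower, against 10.4% and 12.1%.

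**Figure D5:**
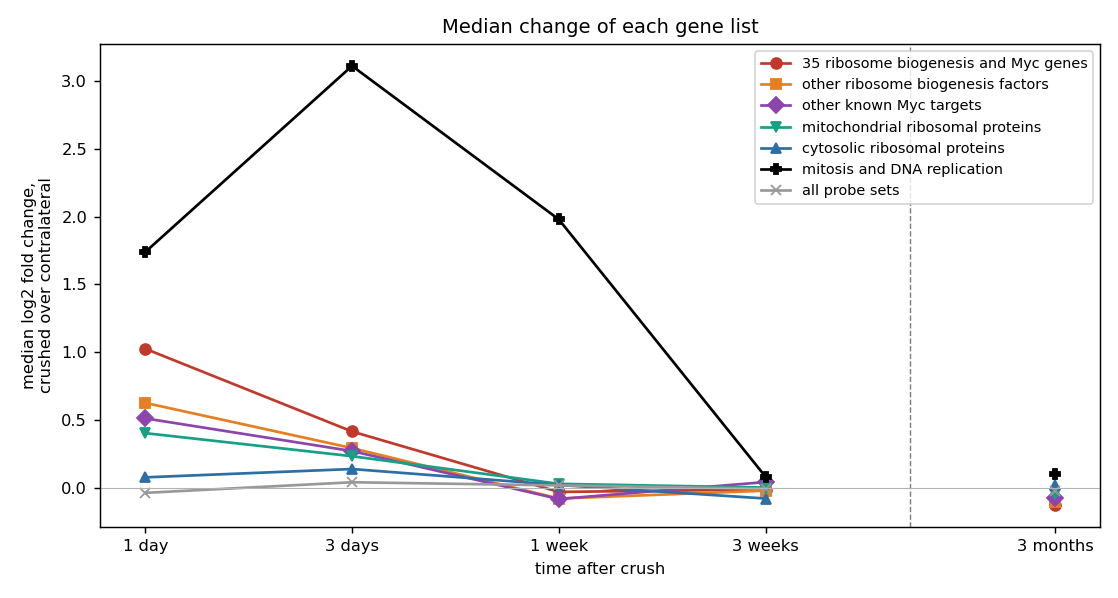
Median log2 fold change, crushed over contralateral, of each gene list (colours and symbols) and of all probe sets (grey) at each time after crush, with 3 months in the second batch right of the dashed line. The 35 genes are highest at 1 day (1.03) and near 0 by 1 week, the mitosis and replication list is highest at 3 days (3.11), and the cytosolic ribosomal proteins stay between -0.07 and 0.14.

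Markers of cell types were counted in the same samples. Of all probe sets, 25.8% were higher and 28.0% lower at 1 day, 25.2% and 15.2% at 3 days, and 23.0% and 19.2% at 1 week. The counts of lower microglia and macrophage markers and of lower skeletal muscle markers at 1 day were near that share. At 1 day all 5 neutrophil markers tested were higher (median log2 fold change 3.86), and the summed intensity of the 6 markers measured was 9496 to 19430 in crushed and 404 to 826 in contralateral ONHs. At 3 days 3 of the 5 were higher, with sums of 1590 to 11240 in crushed and 271 to 477 in contralateral ONHs. At 1 week, when the median of the 35 genes was -0.03, all 5 were again higher (median 3.82), with sums of 1452 to 11060 in crushed and 314 to 444 in contralateral ONHs. Of the 7 markers of microglia and macrophages, 4 were higher and 2 lower at 1 day, at sums of 12980 to 20570 in crushed and 13310 to 16300 in contralateral ONHs, and 4 were higher and 0 lower at 3 days, at 19950 to 26460 and 11840 to 15810. At 1 week 6 of the 7 were higher, at 21150 to 36140 in crushed and 12410 to 16690 in contralateral ONHs. Of the 7 astrocyte markers 0 were higher and 5 lower at 1 day, at sums of 18810 to 28620 in crushed and 39530 to 42500 in contralateral ONHs, and all 5 oligodendrocyte markers were lower, at 26030 to 38630 and 45310 to 49480. At 1 week 4 astrocyte markers and all 5 oligodendrocyte markers were lower, the second list at sums of 20760 to 31470 in crushed and 41410 to 50650 in contralateral ONHs. Of the 5 fibroblast markers 4 were lower at 1 day, at 21650 to 27500 in crushed and 32350 to 39850 in contralateral ONHs, and 3 were higher at 1 week. Of 5 pigment epithelium markers 2 were lower at 1 day (Rpe65 at -2.35 and Rlbp1 at -1.36), with sums of 2309 to 6429 in crushed and 3357 to 14580 in contralateral ONHs, and of 3 skeletal muscle markers tested 1 was lower (Tnnt3 at -1.23). None of the photoreceptor markers tested passed at any time. Over all arrays the lowest intensity of any astrocyte marker was 133 (Slc1a2) and of any oligodendrocyte marker 234 (Mag), while the neutrophil markers Cxcr2 and Mmp8 went down to 1. The 3 prime to 5 prime ratio of the Gapdh control probe sets, a sign of RNA integrity, was 1.29 to 1.40 in crushed and 1.40 to 1.43 in contralateral ONHs at 1 day, and that of Actb was 1.44 to 1.56 and 1.59 to 1.65. The part of the cell types and of RNA integrity in the changes of the 35 genes was not tested. With the photoreceptor signal added to the fit as a covariate, 32 of the 35 genes were again higher at 1 day.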

How the data were processed

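RNA of the ONH, with an RNA integrity number above 9.0 per the labels, was amplified and hybridised to 55 Affymetrix Mouse Genome 430A 2.0 arrays. The deposited values are model-based intensities that the authors computed in DChip, with invariant set normalisation and the difference of perfect match and mismatch probes; the tool's version is not given in the sources used here. The authors normalised 45 arrays (naive, and 1 day to 3 weeks) and the 10 arrays at 3 months separately, and such scaling sets each array to a common overall intensity, so changes are relative to the other probe sets of the batch. Because intensity carries no count, precision rests on the replicate samples, 5 in each group, and on the spread shared within a model as described below.

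Of 22690 rows, 64 control probe sets were left out. Of the 22626 others, 20380 had 1 gene symbol in the platform annotation, 691 had several and 1555 had none. Values below 20 were set to 20 (9.90% of values) before taking log2, and a probe set was tested where 5 or more arrays reached 50. The crush effect was fitted with lmFit and eBayes (with an intensity trend) in limma 3.58.1 under R 4.3.3, with a term for each pair and a crush term for each time over 40 arrays, and in a model of its own for the 10 arrays at 3 months. The times in a model shared 1 estimate of the spread per probe set, moderated by eBayes. The SE of a gene's crush effect was therefore the same at all times up to 3 weeks. Contralateral and naive ONHs were compared without pairs. P-values were adjusted over all probe sets tested by the method of Benjamini and Hochberg, and "passed" means an adjusted p under 0.05. Tables and plots were made with Python 3.11.15, pandas 2.3.3, NumPy 2.4.6 and matplotlib 3.10.9. The fit was first tested on simulated data with known changes.

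Pairs were formed by replicate number, since crushed and contralateral ONHs came from the same mice, although the labels do not state that a number marks the same mice. Same-numbered samples deviated together only weakly: the correlations of their deviations from the group means lay between -0.454 and 0.544 (median -0.053), over 0.1 for 8 of 25 and highest with the own number for 3 of 25. P-values of the limma fits measure the spread between samples pooled over the arrays of a model, not that of 5 pairs alone.

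Values per sample are given for Myc and, in each role group, for the gene with the highest mean intensity and the gene with the largest absolute change at 1 day; other lists are given by counts and medians with up to 4 genes of largest change. The members, lists and rules were chosen with earlier results of these data known. Alternatives were another floor, an offset of 16 in place of the floor, quantile and median scaling, no filter or a filter at 200, no intensity trend, the mean of all probe sets of a gene, a photoreceptor covariate, no pairs, each time fitted alone, the methods' t-test (paired between crushed and contralateral ONHs, unpaired against naive ONHs), leaving out each replicate, and, chosen after seeing the data, leaving out 3 months replicates 2 and 3 together.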

Additional observations from a re-analysis of the deposited data

Results flagged for a closer look

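Among 165 groups of 5 samples, 6 had a sample whose gap to the nearest other sample was more than 0.71 of the group's range; chance gives about 1 in 20 groups. Polr1a had 1354 in crushed 3 months replicate 4, against 601 to 779 in the others. Nop58 had 833 in crushed 1 week replicate 3, against 1058 to 1122. Ddx21 had 5145 in crushed 3 days replicate 5, against 6136 to 6435. Wdr12 had 1063 in contralateral 3 days replicate 5, against 924 to 933, and Rrs1 had 2494 in contralateral 3 weeks replicate 1, against 1860.0 to 1966. The mean log2 level of the 35 genes was 9.31 in naive replicate 5, against 9.54 to 9.63.

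The crush effect differed between successive times, by the contrast itself in limma (adjusted p under 0.05), for the genes given with values per sample as follows. From 1 day to 3 days the difference of log2 fold changes was -1.62 for Myc, -0.98 for Nhp2, -0.95 for Noc2l, -0.89 for Bysl, -0.77 for Nop58, -0.64 for Wdr12, -0.62 for Mybbp1a, -0.42 for Fbl, -0.39 for Wdr43, -0.34 for Gar1 and -0.30 for Ddx21. From 3 days to 1 week it was -0.95 for Mybbp1a, -0.58 for Bysl, -0.58 for Nop58, -0.49 for Gar1, -0.47 for Fbl and -0.43 for Rrs1. From 1 week to 3 weeks it was -1.32 for Myc, -0.52 for Wdr12 and 0.67 for Mybbp1a. Over all 35 genes, 22 differed between 3 days and 1 day, 15 between 1 week and 3 days, 6 between 3 weeks and 1 week, and 32 between 3 weeks and 1 day.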

How the results depend on the processing

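Under the alternatives run, 32 or 33 genes were higher at 1 day and the medians at 1 and 3 days kept their direction. With the mean of all probe sets of a gene, the 1 day median was 0.87, 0 genes were lower at 1 day and 0 at 3 days, 5 were higher at 1 week and 1 at 3 weeks, and 3 values turned: Polr1a at 1 day (0.0021, adjusted p = 0.99), Nolc1 at 1 day (0.46, adjusted p = 0.014) and Nolc1 at 3 days (0.013, adjusted p = 0.96). Without a filter or without an intensity trend, 0 were lower at 3 days. Without the replicate block, 4 were higher at 3 weeks, and no other count moved by over 1.5 times. With each time fitted alone, 1 was higher at 1 week. With the methods' t-test (paired for crush, unpaired against naive) after adjustment, 0 were lower at 1 day, 1 was higher and 1 lower at 1 week, 0 were higher at 3 weeks and 0 differed from naive at 3 weeks; unadjusted, 6 were higher at 3 weeks, 1 was higher and 1 lower at 3 months, and 10, 6, 4 and 7 contralateral values differed from naive at 1 day, 3 days, 1 week and 3 weeks. Leaving out 1 replicate gave 0 to 1 lower at 3 days, 1 to 8 higher at 1 week, 0 to 1 higher at 3 weeks, 2 to 6 differing between 3 weeks and 1 week, and 0 to 1 and 2 to 8 differing from naive at 1 week and 3 weeks. The cause of these shifts was not tested.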
